A study of Mus musculus with 24 samples.

Results

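The comparison described here asks whether the difference in gene expression between 2 neighbouring tubule segments of the mouse kidney was of the same size in the light phase and in the dark phase. It used all 24 arrays of the series and all 18194 genes that a probe set names without ambiguity. Each array carried RNA from microdissected distal convoluted tubules with connecting tubules (DCT/CNT) or from cortical collecting ducts (CCD). The tubules came from the left kidneys of untreated male C57BL/6J mice of 25 to 30 g, which ate standard chow and had adapted for 2 weeks to 12 h of light and 12 h of dark. Tissue was taken at zeitgeber time (ZT, hours after lights on) 0, 4, 8, 12, 16 and 20, with 2 RNA pools per segment and time, built from equal RNA amounts of 5 animals per time. The groups were DCT/CNT in light (ZT0, ZT4, ZT8), DCT/CNT in dark (ZT12, ZT16, ZT20), CCD in light and CCD in dark, with 6 arrays in each. For every gene the DCT/CNT minus CCD difference in dark was subtracted from the same difference in light. This segment-by-phase contrast is on the log2 scale, so a contrast of 1 is a 2-fold change of the segment ratio. A positive contrast means that the light minus dark value was higher in DCT/CNT than in CCD. Mice are active mainly at night, so light is their rest phase. ZT0 and ZT12 are the times of the light switches themselves.

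The distal convoluted tubule reabsorbs sodium chloride through the thiazide-sensitive cotransporter NCC, encoded by Slc12a3, and the connecting tubule and collecting duct reabsorb sodium through the epithelial channel ENaC and water through aquaporins. Principal cells carry ENaC and aquaporin 2, and intercalated cells secrete acid or base. The circadian clock in these cells is a feedback loop: the activators CLOCK or NPAS2 with BMAL1 (gene Arntl) bind E-boxes and drive the Per, Cry and Nr1d genes, whose products repress the activators or the Arntl gene. The PAR bZIP factors DBP, TEF and HLF, themselves clock-driven, carry the rhythm to output genes through D-boxes.

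The arrays showed the segments the labels name. In DCT/CNT Slc12a3 lay between 8.48 and 12.09 and in CCD between 4.48 and 6.01 (log2). Aqp2, aquaporin 2 of principal cells, lay between 7.76 and 8.23 in DCT/CNT and between 9.91 and 10.59 in CCD. The DCT and CNT marker list averaged 10.23 in light and 10.41 in dark in DCT/CNT, and 8.87 and 8.92 in CCD. Not every marker followed: for Stk39 of that list DCT/CNT minus CCD was -0.62 in light and -0.80 in dark. The segments differed in 11812 of 18194 genes in light (64.9%) and in 12816 in dark (70.4%), at a limma Benjamini-Hochberg adjusted p under 0.05. After quantile normalization, which gives all arrays the same spread, these counts were 8983 and 9882. Of the light calls, 4069 were higher in DCT/CNT and 7743 in CCD, or 6681 and 4854 with all arrays set to equal medians. Pools of one segment and time correlated at 0.988 to 0.995 across genes, and the typical gene varied between such pools with an SD of 0.186 for DCT/CNT and 0.157 for CCD (log2 median over genes). The labels do not say whether the pools share animals or whether both segments came from the same mice, so p-values measure the spread between pools only.

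No gene passed the test of the segment-by-phase contrast: 0 of 18194 genes (0%) reached an adjusted p under 0.05, and the smallest was 0.083, for Ranbp3l. At an unadjusted p under 0.05 there were 2214 genes (12.2%), of which 914 (5.02%) had a positive and 1300 (7.15%) a negative contrast. Evenly spread p-values would put 909.7 genes there, a baseline that does not allow for genes moving together. For 17353 genes (95.4%) the whole 95% interval of the contrast lay between -1 and 1, which is less than 2-fold in either direction. These intervals hold for 1 gene at a time and rest on the spread between pools only. Their median half-width was 0.307. The median contrast was -0.04, its quartiles were -0.17 and 0.10, and the extremes were 1.63 for Ranbp3l and -1.62 for Platr4. With the 6 times in place of the pools as the unit, the 3 light differences did not overlap the 3 dark ones in 3517 genes (19.3%), 1494 above (8.21%) and 2023 below (11.1%). An exact two-sided permutation test of 3 against 3 times cannot give a p below 0.1.

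The sign of the contrast moved with the level of a gene and with the scaling. Genes were split by mean level into 3 groups of equal size. Of 708 genes at an unadjusted p under 0.05 in the lowest group 63 were positive, against 580 of 761 in the highest. After quantile normalization, which gives all arrays the same spread, these were 182 of 435 and 421 of 752, and after cyclic loess 228 of 443 and 398 of 758. Setting all arrays to equal medians moved the median contrast of all genes from -0.04 to 0.00 and the split to 1302 positive and 787 negative. With quantile normalization it was 994 and 903, and with cyclic loess 1012 and 792. The interquartile range of the values on an array was 3.55 ± 0.112 in DCT/CNT in light and 3.43 ± 0.0836 in dark (SD, n = 6), and 4.20 ± 0.0892 and 4.20 ± 0.0579 in CCD. Signs of small contrasts are therefore given below as values only.

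Each segment by itself did change between phases. In DCT/CNT 615 genes differed between light and dark (3.38%), 354 higher in light (1.95%) and 261 higher in dark (1.43%), or 427 and 185 with equal medians. In CCD 137 genes differed (0.753%), 63 higher in light (0.346%) and 74 higher in dark (0.407%). Of these, 65 genes were called in both segments, 10.6% of the DCT/CNT calls and 47.4% of the CCD calls, and all 65 had the same sign in both. A call in one segment and not in the other does not show a difference between segments; the difference itself is the contrast, which no gene passed. Leaving out single arrays moved the counts to between 222 and 829 in DCT/CNT and between 54 and 145 in CCD.

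Ranbp3l, which encodes a protein related to the nuclear transport factor RANBP3, had the largest contrast of all genes and was singled out after its values were seen. In DCT/CNT its pools read 5.45 and 5.79 at ZT0, 7.24 and 6.76 at ZT4, 7.70 and 8.21 at ZT8, 6.93 and 7.58 at ZT12, 6.00 and 5.97 at ZT16, and 5.91 and 6.15 at ZT20 (log2). In CCD they read 9.39 and 9.13 at ZT0, 8.38 and 8.01 at ZT4, 7.82 and 8.43 at ZT8, 9.03 and 9.88 at ZT12, 10.15 and 10.02 at ZT16, and 9.57 and 9.71 at ZT20. The DCT/CNT values were highest and the CCD values lowest near ZT8, so the 2 segments ran in opposite directions over the day. At ZT8 the segments overlapped, with a difference of -0.17, while at ZT16 CCD was 4.10 higher on the log2 scale. The segment difference was -3.64 at ZT0, -1.19 at ZT4, -0.17 at ZT8, -2.20 at ZT12, -4.10 at ZT16 and -3.61 at ZT20. The ZT0 value lay among the dark ones, so light and dark differences overlapped. The contrast was 1.63 (SE 0.24, 95% interval 1.13 to 2.14, limma unadjusted p = 4.56e-06, adjusted p = 0.083), a 3.10-fold difference between phases. In CCD Ranbp3l was 2.30-fold higher in dark than in light (limma adjusted p = 0.00311), and in DCT/CNT the light minus dark value was 0.43 (adjusted p = 0.155).

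The size of the Ranbp3l contrast depended on the times included. Without ZT0 the contrast was 2.62 (limma adjusted p = 0.00458), without ZT12 2.19 (adjusted p = 0.00192) and without both 3.17 (SE 0.24, adjusted p = 0.000478). Without ZT8 it was 0.89 (adjusted p = 0.302) and without ZT16 1.23 (adjusted p = 0.341). Over all 43 alternative settings the contrast stayed positive, its adjusted p ran from 0.000478 to 0.428, and it passed the test in 13. The second probe set of the gene gave 1.73.

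The promoter windows below belong to the gene with the largest contrast and to 3 examples of the clock genes called between light and dark in both segments. The examples are the PAR bZIP factor gene Tef, the repressor gene Cry1 and the period gene Per3, and the windows of the other such genes are not shown. The windows are RefSeq sequences of GRCm38.p6, of 300 bases that lie mostly upstream of a gene start. They are read 5′ to 3′ on the gene's strand, with matches to the searched motifs in capitals. The motifs were the E-box CACGTG, the D-box TTATGTAA or TTATGCAA, the element TAGGTCA bound by ROR and REV-ERB receptors (RORE), the glucocorticoid response element and the cAMP response element TGACGTCA, on both strands.
Ranbp3l, chr15:8967699-8967998, plus strand: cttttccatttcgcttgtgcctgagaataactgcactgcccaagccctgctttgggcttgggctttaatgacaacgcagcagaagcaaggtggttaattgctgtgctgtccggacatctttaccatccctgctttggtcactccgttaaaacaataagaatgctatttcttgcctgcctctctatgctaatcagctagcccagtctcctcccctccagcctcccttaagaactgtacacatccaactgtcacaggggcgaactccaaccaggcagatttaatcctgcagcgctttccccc
Tef, chr15:81802423-81802722, plus strand: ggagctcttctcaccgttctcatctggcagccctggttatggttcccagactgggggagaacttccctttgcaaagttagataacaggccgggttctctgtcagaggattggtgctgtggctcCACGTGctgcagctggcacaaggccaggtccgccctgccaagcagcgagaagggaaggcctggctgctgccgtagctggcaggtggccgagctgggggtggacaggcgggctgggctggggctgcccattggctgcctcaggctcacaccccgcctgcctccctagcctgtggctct
Cry1, chr10:85185005-85185304, minus strand: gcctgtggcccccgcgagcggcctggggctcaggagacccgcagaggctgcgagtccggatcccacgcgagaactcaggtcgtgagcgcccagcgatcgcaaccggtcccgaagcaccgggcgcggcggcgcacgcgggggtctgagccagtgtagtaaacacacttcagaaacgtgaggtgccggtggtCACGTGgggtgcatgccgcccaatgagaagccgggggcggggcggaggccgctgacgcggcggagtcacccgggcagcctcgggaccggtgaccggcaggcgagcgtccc
Per3, chr4:151044616-151044915, minus strand: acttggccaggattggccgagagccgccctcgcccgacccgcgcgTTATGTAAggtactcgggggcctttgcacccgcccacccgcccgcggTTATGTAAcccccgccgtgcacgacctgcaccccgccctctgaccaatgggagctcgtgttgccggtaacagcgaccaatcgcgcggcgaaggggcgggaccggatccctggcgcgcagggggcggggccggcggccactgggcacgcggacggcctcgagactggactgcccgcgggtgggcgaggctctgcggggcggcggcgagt

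The Ranbp3l window held none of these letters, the Tef and Cry1 windows an E-box each and the Per3 window 2 D-boxes. A second Tef window, chr15:81811164-81811463, also held an E-box. Over all 32851 promoter windows, 7.15% held the E-box, 1.66% the D-box, 2.61% the RORE, 0.475% the glucocorticoid element and 1.79% the cAMP response element. Of the 29 clock and clock output genes measured, 25 matched the table with 38 windows. An E-box stood in 8 of those windows (21.1%), belonging to Ciart, Cry1, Bhlhe41, Per1, Lonrf3, Tef and Tspan4. Of the genes called in both segments but not shown above, Arntl and Tspan4 had a match to 1 of the motifs. Per2, Npas2, Nr1d1, Cry2, Nampt, Usp2, Wee1 and Tsc22d3, also called in both, were not among the genes with a match. Of the 15 ranked genes with a positive contrast described next, 13 matched with 15 windows, and the E-box in the Enkur window was the only match to any of the motifs. Of the 15 with a negative contrast, 11 matched with 19 windows and none held a motif. A match is a string of letters and not a shown binding site.

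**Figure D1:**
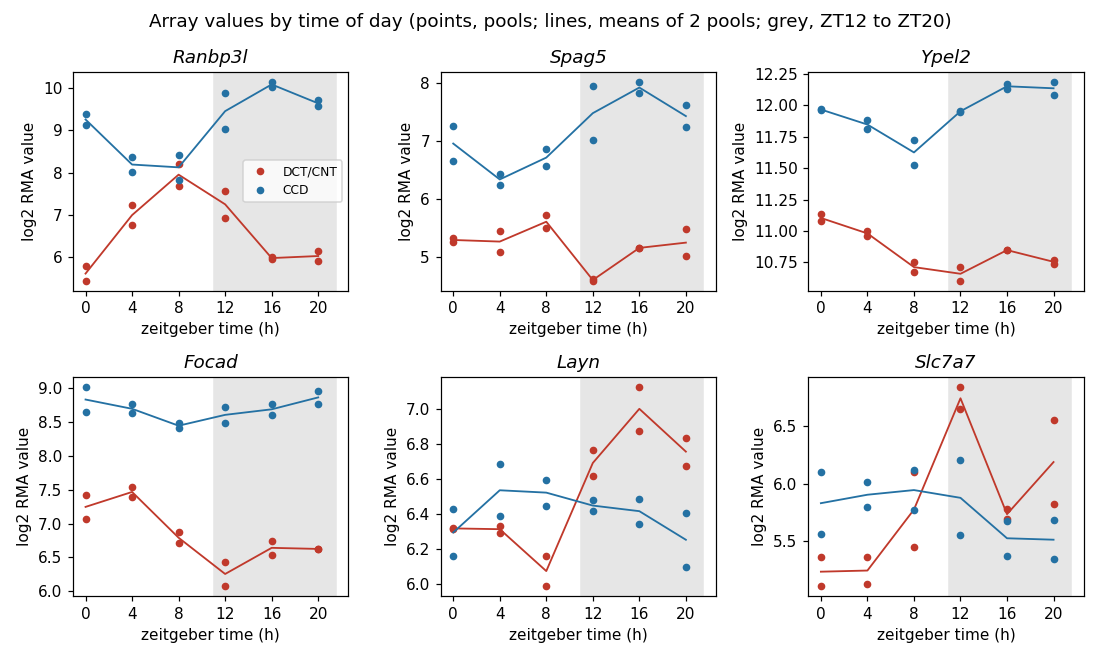
Array values (log2, vertical axis) against zeitgeber time (hours, horizontal axis) for 6 genes. Red points are DCT/CNT pools and blue points CCD pools, lines join the means of 2 pools, and grey marks ZT12 to ZT20. The Ranbp3l lines meet at ZT8, and the Spag5 lines lie farthest apart in the dark.

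Since no gene was called, 15 genes in each direction were taken by smallest unadjusted p among named genes whose light and dark segment differences did not overlap. That rule used this contrast, so their values are a description. Their adjusted p-values ran from 0.115 to 0.151 and their contrasts from 0.37 to 1.32 and from -0.41 to -1.06. In 27 of the 30 the segments had opposite signs of light minus dark, which selection on a large contrast favours: the share was 83.2% of the 2214 genes at an unadjusted p under 0.05 and 44.7% of all genes. The positive genes had a median level of 9.27 and the negative ones 5.46, against 6.81 over all genes, and 13 and 2 of them lay above that median. The light minus dark value of DCT/CNT alone was called in 21 of the 30 (3.38% of all genes) and that of CCD alone in 5 (0.753% of all genes), with the genes selected on a contrast of these same values. The 5 were Spag5, Ypel2, Plekha1, Ogt and Igf1. For 19 of the 30 genes there were other probe sets, 35 in all, and 28 of these had the sign of the one kept. All 30 kept their sign under every alternative in which they were measured, which their selection on this contrast in the same arrays also favours.

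Spag5, which encodes the mitotic spindle protein astrin, had the largest positive contrast of the ranked genes. In DCT/CNT its light arrays read 5.27, 5.33, 5.09, 5.45, 5.50 and 5.73, and its dark arrays 4.60, 4.62, 5.16, 5.16, 5.02 and 5.48. In CCD the light arrays read 7.26, 6.65, 6.24, 6.44, 6.57 and 6.85, and the dark arrays 7.02, 7.94, 7.82, 8.02, 7.24 and 7.61. Every CCD array exceeded every DCT/CNT array, and the segments lay farther apart in dark, with a difference of -1.27 in light and -2.60 in dark. The contrast was 1.32 (SE 0.21, limma adjusted p = 0.115), and CCD alone was 1.92-fold higher in dark (adjusted p = 0.00823). The other probe sets of Spag5 gave 0.41 and 0.21.

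Ypel2, Plekha1 and Ogt had the same form at a smaller size: a higher level in the dark in CCD and a small opposite value in DCT/CNT. Ypel2 in CCD ran from 11.52 to 11.97 in light and from 11.95 to 12.19 in dark, and in DCT/CNT from 10.68 to 11.13 in light and from 10.61 to 10.85 in dark. Its contrast was 0.44 (SE 0.07, limma adjusted p = 0.115), and its 2 other probe sets gave 0.43 and 0.40. Plekha1, which encodes a phosphoinositide-binding adaptor, did not overlap between light (10.54 to 10.86) and dark (10.96 to 11.09) in CCD, with a contrast of 0.37. Ogt encodes the enzyme that attaches O-linked N-acetylglucosamine to proteins. Its contrast was 0.39, and all 5 of its probe sets lay between 0.17 and 0.39.

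In the other 11 positive genes light minus dark was larger in size in DCT/CNT than in CCD, by least in Gprc5b, with 0.28 and -0.28. Slc38a2, a sodium-coupled neutral amino acid transporter, was 0.52 higher in light in DCT/CNT (log2, limma adjusted p = 0.00459) and -0.06 in CCD (adjusted p = 0.883). Svopl, a transporter-like gene, ran from 7.83 to 8.27 in light and from 6.85 to 7.62 in dark in DCT/CNT without overlap, and from 8.05 to 8.65 and from 8.18 to 8.54 in CCD. Its contrast was 0.77. Focad, which encodes focadhesin, had a contrast of 0.72, the zinc finger factor gene Ikzf2 0.68 and the ciliary gene Enkur 0.93. The remaining contrasts were 0.45 for the endolysosomal channel gene Mcoln3, 0.56 for the orphan receptor gene Gprc5b, 0.45 for Mospd2, 0.48 for Cd247, 0.62 for Arrb2, which encodes beta-arrestin 2, and 0.44 for the cyclin G2 gene Ccng2. The other 3 probe sets of Cd247 gave -0.15, -0.17 and -0.09. Those of Ikzf2 gave 0.03 and -0.23, those of Mospd2 0.03 and 0.32, that of Arrb2 0.10 and that of Ccng2 0.02. Those of Gprc5b, Mcoln3 and Slc38a2 lay between 0.34 and 0.47.

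Among the negative genes, Layn and Cacna1c were higher in dark in DCT/CNT and did not differ detectably in CCD. Layn, which encodes the hyaluronan receptor layilin, ran from 5.99 to 6.33 in light and from 6.61 to 7.12 in dark in DCT/CNT, and from 6.16 to 6.68 and 6.10 to 6.49 in CCD. Its contrast was -0.66 (SE 0.12, limma adjusted p = 0.13), and its other probe set gave -0.03. Cacna1c, which encodes a pore subunit of L-type calcium channels, had a contrast of -0.82 at a low mean level of 4.05. Igf1, the growth factor gene, had the opposite form: in CCD it ran from 8.46 to 9.11 in light and from 7.94 to 8.34 in dark without overlap, and in DCT/CNT from 6.93 to 7.78 and 7.43 to 7.77. Its contrast was -0.75, and its other 3 probe sets gave -0.14, -0.49 and -0.52.

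Slc7a7, which encodes a basolateral amino acid transporter of the proximal tubule, had the most negative ranked contrast, -1.06 (SE 0.23, limma adjusted p = 0.151). In DCT/CNT it ran from 5.11 to 6.10 in light and from 5.69 to 6.84 in dark, and in CCD from 5.56 to 6.12 and 5.35 to 6.20. Its highest values were the DCT/CNT pools of ZT12, 6.64 and 6.84. With the means of the proximal tubule and thick ascending limb lists as covariates, a list mean to which Slc7a7 belongs, its contrast was -0.87. Of the other negative genes, Lrrc34 gave -0.99, Efcab10 -0.64, Tnfrsf25 -0.60, an immunoglobulin kappa variable segment -0.57 and Ctsw -0.54. Lrrc10b gave -0.52, Ceacam18 -0.51, Trmt13 -0.46, the oocyte histone gene H1f8 -0.45, Adamts16 -0.44 and the axon guidance gene Slit1 -0.41. The other probe sets of Trmt13 gave -0.11, -0.07, 0.26 and 0.24, that of Adamts16 -0.07 and that of Slit1 0.15. Those of Slc7a7 and Cacna1c gave -1.43 and -0.34.

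Of 16 core clock genes measured, 8 differed between light and dark in DCT/CNT and 7 in CCD, and of 13 clock output genes 7 and 7, where 3.38% of all genes did in DCT/CNT and 0.753% in CCD. None of the 29 passed the test of the segment-by-phase contrast. An unadjusted p under 0.05 was reached by 6 (Rora, Nr1d1, Hlf, Lonrf3, Tsc22d3 and Tfrc), beside 12.2% of all genes, and every 95% interval lay within -1 to 1. The median contrast was -0.05 for the core genes and -0.01 for the output genes, beside -0.04 for all genes.

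Among the activators, Npas2 had the largest swing. Its DCT/CNT pools read 8.58 and 8.26 at ZT0, 8.40 and 8.31 at ZT4, 7.32 and 6.67 at ZT8, 4.85 and 5.50 at ZT12, 5.16 and 5.83 at ZT16, and 7.32 and 6.58 at ZT20. Its CCD pools read 8.45 and 8.27, 7.64 and 7.60, 6.68 and 6.22, 4.81 and 3.86, 3.97 and 4.65, and 7.30 and 7.70 at the same times. Both segments were high at ZT0 and low at ZT12 and ZT16. Light minus dark was 2.05 in DCT/CNT and 2.09 in CCD, and the contrast was -0.04 (SE 0.29, 95% interval -0.66 to 0.57), with the opposite sign in 16 of 42 alternatives. Arntl, the BMAL1 gene, gave 1.47 and 1.17 with a contrast of 0.30.

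Among the repressors, Per2 did not overlap between light and dark in either segment. In DCT/CNT it ran from 6.29 to 7.99 in light and from 8.67 to 9.60 in dark, and in CCD from 6.97 to 7.79 and 8.36 to 9.44. Light minus dark was -1.66 and -1.60, and the contrast was -0.05 (SE 0.24, 95% interval -0.56 to 0.45). Per3 gave -1.34 and -1.21, and Cry1 -1.05 and -1.32. Nr1d1, which encodes REV-ERB alpha, was the core gene with the largest contrast in size. It was higher in light by 0.86 in DCT/CNT and by 1.35 in CCD, with a contrast of -0.50 (SE 0.22, unadjusted p = 0.0373, limma adjusted p = 0.382). Rora, which encodes a nuclear receptor of the same DNA elements, had a contrast of 0.35 (SE 0.12, unadjusted p = 0.0092, limma adjusted p = 0.287).

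Among the output genes, Hlf had the largest contrast in size. In DCT/CNT it ran from 7.07 to 8.01 in light and from 8.23 to 9.35 in dark without overlap, and in CCD from 6.31 to 7.62 and 6.97 to 8.08. Its contrast was -0.59 (SE 0.19, limma adjusted p = 0.266). Tef was called in both segments with light minus dark of -0.88 and -0.80 and a contrast of -0.07. Dbp swung widely over the day, from 7.87 to 12.55 in DCT/CNT, yet its light minus dark was -0.38 and -0.03 and was called in neither. Its highest pools stood at ZT12 and its lowest at ZT0 and ZT20 in DCT/CNT, so means over the light and the dark times hide most of its swing.

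Other output genes included Nampt, the rate-limiting enzyme of NAD salvage, which did not overlap between phases in either segment (light minus dark -0.61 and -0.46, contrast -0.14). The deubiquitinase gene Usp2 gave -0.77 and -0.78 with a contrast of 0.01. Tsc22d3, the glucocorticoid-induced leucine zipper gene, was higher in dark by 0.58 in DCT/CNT and 0.97 in CCD, with a contrast of 0.38 (limma adjusted p = 0.285). Tfrc, the transferrin receptor gene, had a contrast of -0.49 (adjusted p = 0.299) and Lonrf3 0.45 (adjusted p = 0.271).

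**Figure D2:**
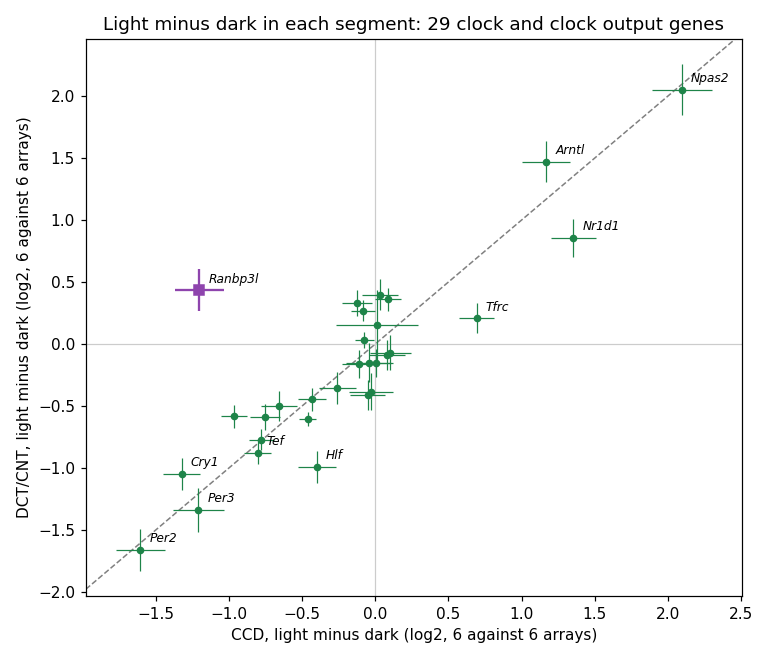
Light minus dark (log2) in DCT/CNT (vertical axis) against CCD (horizontal axis) for 29 clock and clock output genes (green) and Ranbp3l (purple). Bars are 1 SE and the dashed line marks equal values. Npas2, at 2.05 and 2.09, and Per2, at -1.66 and -1.60, lie on the line, and Ranbp3l, at 0.43 and -1.20, lies away from it.

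The sodium and water transport genes gave narrow intervals around 0. The ENaC subunit genes had contrasts of -0.02 for Scnn1a (95% interval -0.25 to 0.21), -0.06 for Scnn1b and 0.03 for Scnn1g. In DCT/CNT Scnn1a ran from 9.01 to 9.56 in light and from 9.22 to 9.51 in dark, and in CCD from 9.32 to 9.76 and 9.36 to 9.77. All 4 ranges overlapped. Sgk1, the aldosterone-induced kinase gene, had a contrast of -0.00 (95% interval -0.25 to 0.24). It was highest at ZT16 in both segments, at 12.30 and 12.21 in DCT/CNT and 13.23 and 13.28 in CCD. Hsd11b2, which protects the mineralocorticoid receptor from glucocorticoids, gave 0.01. Aqp2 gave 0.06 (95% interval -0.16 to 0.28), Aqp3 0.04 and the vasopressin V2 receptor gene Avpr2 0.14. Avpr1a, the V1a receptor gene, was higher in light in both segments, by 0.48 in DCT/CNT and 0.34 in CCD, with a contrast of 0.14. Of the intercalated cell transporters, the band 3 gene Slc4a1 gave 0.18 (unadjusted p = 0.0273, limma adjusted p = 0.349) and the pendrin gene Slc26a4 0.02. Of the genes in this paragraph all but Avpr2 and Slc4a1 took the opposite sign of contrast in at least 1 of 43 alternatives, Scnn1a in 10 and Sgk1 in 15.

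The genes of the distal convoluted tubule itself could not be read as closely. Slc12a3 in DCT/CNT gave pools of 11.88 and 9.29 at ZT0, 11.41 and 11.54 at ZT4, 9.61 and 9.44 at ZT8, 11.32 and 12.08 at ZT12, 8.48 and 12.09 at ZT16, and 11.38 and 10.78 at ZT20. The pools of ZT0 and of ZT16 differed by more than the means of light and dark. The contrast was -0.09 with a 95% interval from -1.59 to 1.41, which includes a 2-fold difference in either direction. Pvalb, the parvalbumin gene of the early distal convoluted tubule, was low in the same pools, at 6.33 in the second ZT0 pool and 6.40 in the first ZT16 pool, beside 9.69 and 10.09 in their partners. Its contrast was -1.04 (95% interval -2.71 to 0.63). Trpm6, the magnesium channel gene, gave -0.69 (95% interval -1.34 to -0.05, unadjusted p = 0.0374, limma adjusted p = 0.382). Calb1, the calbindin gene, varied little between pools and gave 0.15. In pooled tubules, fewer cells of a type and less RNA per cell cannot be told apart.

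**Figure D3:**
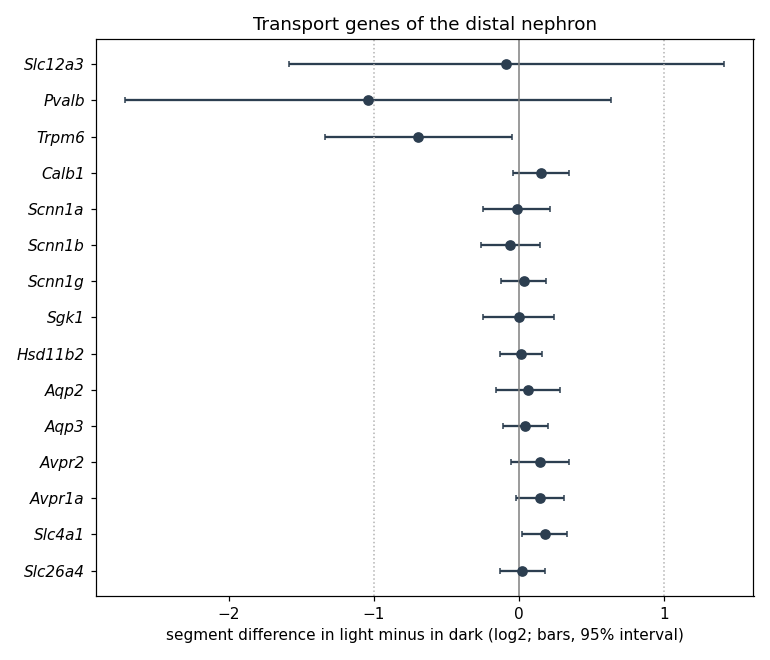
Segment-by-phase contrast (log2, horizontal axis) with its 95% interval for 15 transport genes, and dotted lines at -1 and 1. The ENaC, Sgk1, Hsd11b2 and aquaporin intervals lie close to 0, and those of Slc12a3 and Pvalb are the widest.

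Across 28 gene lists no member passed the test of the contrast, and the lists differed in how many members had an unadjusted p under 0.05, a property of 12.2% of all genes. In the claudin and tight junction list, the proteins that set paracellular permeability, 5 of 20 did, 3 positive and 2 negative. Cldn8, a collecting duct claudin, ran from 11.10 to 11.50 in light and from 10.73 to 11.27 in dark in DCT/CNT, and from 11.78 to 12.22 and 11.74 to 12.28 in CCD. Its contrast was 0.35 (SE 0.09, limma adjusted p = 0.186). Tjp1, which encodes the junction scaffold ZO-1, gave 0.32 (adjusted p = 0.253).

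In the calcium and magnesium list 5 of 19 members had such a p, 1 positive and 4 negative, with a median of -0.17. The vitamin D receptor gene Vdr gave -0.41 (SE 0.11, limma adjusted p = 0.217). Its segment difference was 2.01 at ZT0, 1.75 at ZT4, 1.17 at ZT8, 1.75 at ZT12, 2.14 at ZT16 and 2.28 at ZT20. DCT/CNT exceeded CCD at every time, by least at ZT8. Among 18 genes of water transport and the vasopressin response, the prostaglandin receptor gene Ptger1 gave 0.82 (adjusted p = 0.261) and the adenylyl cyclase gene Adcy6 0.24 (adjusted p = 0.312), and the list median was 0.06. In the intercalated cell list, with a median of 0.01 over 21 genes, Kit gave 0.36 (adjusted p = 0.224). In DCT/CNT Kit ran from 8.97 to 9.37 in light and from 8.42 to 8.95 in dark without overlap.

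In the list of 20 glucocorticoid response genes 8 contrasts were positive and 12 negative, with a median of -0.06. Its metallothionein genes Mt1 and Mt2 gave -0.59 (limma adjusted p = 0.154) and -0.55 (adjusted p = 0.253). Tsc22d3, also in that list, went the other way with 0.38. Mt1 segment differences were small at ZT0, ZT4 and ZT8, from -0.14 to 0.09, and 0.54, 0.67 and 0.38 at ZT12, ZT16 and ZT20. In the list of 22 genes of the unfolded protein response 17 contrasts were positive, with a median of 0.06, and the transcription factor gene Xbp1 gave 0.38 (adjusted p = 0.291). In the list of 13 chromatin and translation regulators of the clock 10 were positive with a median of 0.12. Ep300, a histone acetyltransferase gene, gave 0.48 and did not overlap in CCD between light (6.95 to 7.53) and dark (7.57 to 7.96). The AMP-activated kinase genes Prkaa1 and Prkaa2 gave 0.42 and 0.26. Among the 13 ribosomal protein genes 12 were negative with a median of -0.07, and among 31 genes of oxidative phosphorylation 21 were negative with a median of -0.03. With equal medians the median of all genes moved by 0.04, which is close to the smaller of these list medians.

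Markers of the proximal tubule averaged higher in dark than in light, and more so in the DCT/CNT pools. Light minus dark was called for 3 of 21 in DCT/CNT, beside 3.38% of all genes, and for 0 in CCD, beside 0.753%. The mean of the 21 genes measured was 7.28 in light (range 7.05 to 7.98) and 8.08 in dark (7.48 to 8.49) in DCT/CNT, and 7.54 (7.03 to 8.24) and 7.92 (7.38 to 8.54) in CCD (log2, n = 6 each). In DCT/CNT it was 7.13 at ZT8 and 8.46 at ZT12. The contrast was negative for 17 of the 21 with a median of -0.39, the lowest of the lists, beside -0.04 over all genes. None passed the test. Only 5 of the 21 intervals lay within -1 to 1. The glucose cotransporter gene Slc5a2 gave -0.44 (limma adjusted p = 0.31) and the organic anion transporter gene Slc22a8 -1.07 (adjusted p = 0.467). Its CCD pools at ZT8 read 8.21 and 5.68. The xenobiotic list, with a median of -0.20 over 14 genes, was negative in 11. The part of proximal tubule RNA in the negative contrasts was not tested. The fit with the proximal tubule and thick ascending limb means as covariates cannot decide it. The main fit also called 0 genes, and the proximal tubule mean is built from these same markers. Beside 1 mean per segment and time, its slopes rest on differences between paired pools only. In the covariate fit 0 genes were called by limma, and the Ranbp3l contrast was 1.49.

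Other markers differed less. The DCT and CNT markers averaged 10.23 in light and 10.41 in dark in DCT/CNT, and 8.87 and 8.92 in CCD. In DCT/CNT their mean was 9.92 at ZT8 and between 10.31 and 10.47 at the other times. In CCD it was 8.73 at ZT8 and between 8.85 and 9.02 at the other times. The Ranbp3l and Vdr segment differences were also smallest in size at ZT8, and a link to the marker level was not tested. Thick ascending limb markers averaged 6.51 and 6.63 in DCT/CNT and 6.24 and 6.26 in CCD, with a list median of -0.18 over 11 genes. Median contrasts were -0.18 for 6 podocyte genes, -0.17 for 13 endothelial genes, -0.12 for 13 genes of smooth muscle, mesangium and fibroblasts, -0.03 for 15 leukocyte genes and -0.35 for 4 erythrocyte genes. In these last 5 lists, the macrophage receptor gene Csf1r had the largest single contrast in size, 0.95 (limma adjusted p = 0.347), with 1 DCT/CNT pool of ZT4 at 10.48 and its partner at 8.54.

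**Figure D4:**
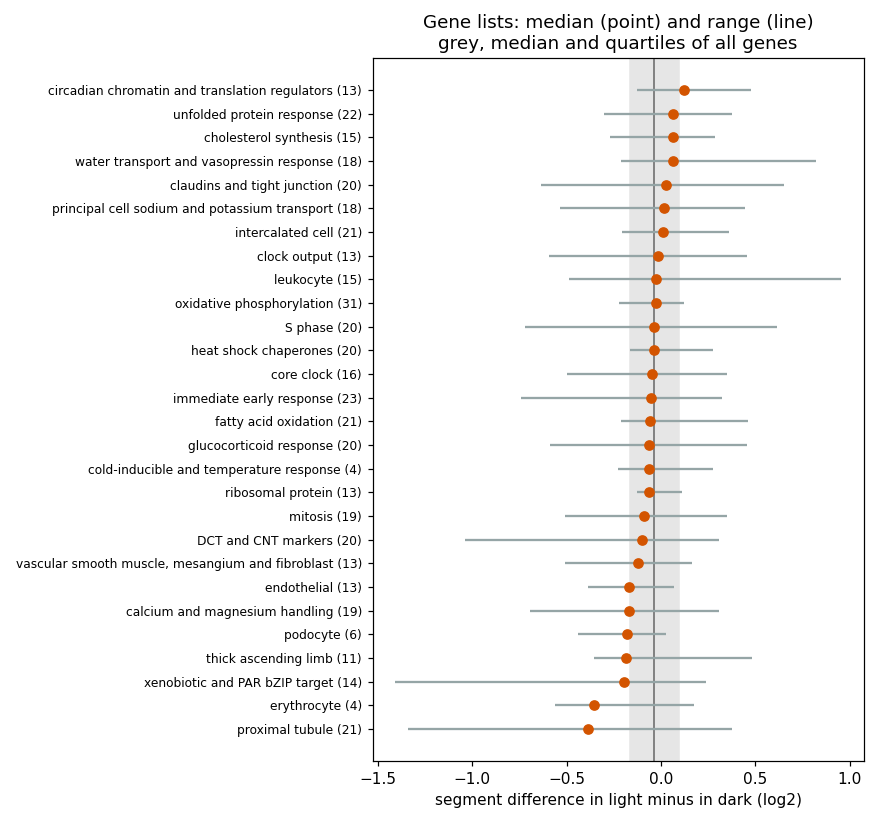
Median (points) and range (lines) of the segment-by-phase contrast (log2, horizontal axis) in 28 gene lists, with the number of genes measured in brackets. Grey marks the median, -0.04, and the quartiles, -0.17 and 0.10, of all 18194 genes, and the proximal tubule list has the lowest median, -0.39.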

How the data were processed

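Expression was measured on 24 oligonucleotide arrays, from 10 ng of total RNA per amplification per the labels' protocols. The deposited log2 values had been summarised by the authors with RMA, per the submitters' processing notes; whether all arrays were normalized together is not given in the sources used here. No scan dates or batches were given. Of 45101 probe sets 34958 name 1 gene symbol, 932 several and 9211 none in the platform annotation, and 34754 matched RefSeq by gene number. Each gene was represented by the brightest probe set, by mean, of those naming that gene alone, which gave 18194 genes, 9012 of them with more than 1 probe set. Array values have no read depth; the number of arrays limits the precision.

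One mean per segment and time (12 residual degrees of freedom) was fitted with limma 3.58.1 in R 4.3.3 to all 24 arrays, with empirical Bayes moderation and Benjamini-Hochberg adjustment over all 18194 genes; genes at an adjusted p under 0.05 were called. On simulated data the test recovered 27 of 67 contrasts of 1.5-fold, 61 of 67 of 2-fold and 66 of 66 of 3-fold. It also called 8 unchanged genes there. These shares hold for the simulated spread and number of changed genes. In the data 33 genes had a contrast above 1 in size and 0 were called. The simulated shares therefore do not give the chance of a call on these arrays. Named genes were the 15 per direction of smallest unadjusted p without overlap of light and dark times (unannotated transcripts and chemosensory receptors left out), all clock and clock output genes, up to 3 members of smallest p of each other list and 16 transport markers, of which Trpv5 was not analysed here. Ranbp3l and the genes of the last section were chosen after their values were seen. The members and lists were chosen with earlier results of these data known. Promoter windows were searched for named genes, because no gene was called. Alternatives changed the model, scaling, filter, probe set rule, variance model, covariates, arrays and times.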

Additional observations from a re-analysis of the deposited data

How the results depend on the processing

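The count of genes called by limma for the segment-by-phase contrast, 0 with all arrays as deposited and 2214 at an unadjusted p under 0.05, was also 0 with 4 means per gene, with a random block, with array weights, with the tubule covariates and without ZT4, ZT8, ZT16 or ZT20. It was 1 with an additive time term (Ypel2, adjusted p = 0.0353), 1 with equal medians, 1 with cyclic loess and 1 with the mean of all probe sets (Ranbp3l each), 1 without ZT0, 1 without ZT12 and 1 without both (Ranbp3l each), 2 with dim genes removed (Ranbp3l and Ypel2), 4 after quantile normalization (Enkur, Focad, Ranbp3l and Spag5) and 18 with a robust variance and intensity trend. Leaving out each array in turn gave 0 to 7 and was 0 for 19 of 24 arrays; the 7 came without the second DCT/CNT pool of ZT20, 4 without the second CCD pool of ZT8, 2 without the first CCD pool of ZT12 and 1 each without the second DCT/CNT pools of ZT8 and ZT12. The labels do not say whether the pool numbers pair the samples. With the number as a replicate block the contrast had 0 calls, DCT/CNT light minus dark 537 and CCD 135. That block is a single term over all groups, so it cannot show pairing within a time. For DCT/CNT light minus dark, the 615 calls became 381 with 4 means, 185 with a random block, 232 with array weights, 79 with the tubule covariates, 99 without ZT4, 400 without ZT8, 171 without ZT16 and 222 to 829 without single arrays, lowest without the second DCT/CNT pool of ZT0, with a drop of over 1.5 times also without the first pool of ZT0, either of ZT4 or ZT12, the second of ZT8 or ZT16 and the first of ZT20. For CCD the 137 became 47, 34, 252, 86, 41, 77 and 33 in the same order, 255 with dim genes removed, 332 with the robust variance and 54 to 145 without single arrays, lowest without the second CCD pool of ZT20, with such a drop also without either pool of ZT0, the second of ZT4, ZT8 or ZT12 and the first of ZT16. With dim genes removed 9096 genes were tested, and the segment differences gave 6912 calls in light and 7091 in dark. Of the 6912, 491 were higher in DCT/CNT and 6421 in CCD, beside 4069 and 7743 with all 18194 genes. Without single arrays they gave 11022 to 11947 and 12158 to 12912. After quantile normalization the counts were 8983 and 9882, and after cyclic loess 9315 and 10136. The 30 ranked genes and Ranbp3l, chosen on this contrast in the same arrays, kept their sign in every setting that measured them. Smaller contrasts did not always, Npas2 having the opposite sign in 16 of 42. The cause of these changes was not tested.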

Other observations

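Of the 33 genes with a contrast above 1 in size, 21 had an unadjusted p under 0.05 and none passed the test. The 33 include Slc5a12, Slc22a8 and Slc7a7 of the proximal tubule list, all with a negative contrast. The part of proximal tubule RNA in the values below was not tested. The following were chosen after their values were seen. The glucose transporter gene Slc2a2 gave -1.58 (unadjusted p = 0.00276, limma adjusted p = 0.253), with light minus dark at -1.13 in DCT/CNT and 0.45 in CCD (log2). The fatty acid binding protein gene Fabp3 gave -1.07 (unadjusted p = 0.000491, limma adjusted p = 0.154) at a mean level of 8.58, and the growth factor gene Mdk -1.04 (unadjusted p = 0.000763, limma adjusted p = 0.18). The cystine transporter gene Slc7a11 had a positive contrast (unadjusted p = 0.0134, limma adjusted p = 0.309), with light minus dark at -0.54 in DCT/CNT and -1.54 in CCD.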
